A study of Mus musculus with 4 samples.

Results

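The AP-1 and Egr immediate early factors were examined in peritoneal macrophages of CD13 knock out (KO) mice and of wild type (WT) mice, all of strain C57BL/6. They were taken as the 10 genes Fos, Fosb, Fosl2, Jun, Junb, Jund, Egr1, Egr2, Ier2 and Atf3, and as every probe that the platform annotation assigns to them. The array held 13 such probes among 45281. A probe was taken as measured where its detection p-value, low where a signal stands above that of background beads, was under 0.01 on at least 2 of the 4 arrays. By that rule 10 of the 13 probes were measured, 1 for each gene. The 2 other probes of Fosl2 and the other probe of Junb were above background on 0 of the 4 arrays, so 10 of 10 genes entered a test over 10335 genes and unnamed probes.

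Each group had 2 Illumina MouseWG-6 v2.0 arrays, hybridised with cRNA from total RNA of resting macrophages. The KO animals are described as null for CD13, the surface aminopeptidase encoded by Anpep. Bone marrow derived macrophages are also mentioned in the series text, but each of the 4 arrays is labelled as peritoneal macrophages. How many animals stand behind an array is not stated in the labels. The p-values therefore cover the spread between these 4 arrays, which may be technical.

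AP-1 is a dimer of leucine zipper proteins, in which a Jun protein pairs with itself or with a Fos or ATF protein and binds DNA. Egr proteins are zinc finger factors that bind GC-rich sites. In macrophages and most other cells, many of their genes are silent or low at rest. Such genes are switched on within minutes, without new protein synthesis, by growth factors, adhesion, microbial products or the handling of tissue. The response is brief, because the messages are unstable and several of the proteins limit their own genes.

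The promoter letters of 4 members are shown because Fos and Egr2 held several matches to the motifs searched, and because Jun and Junb, of 1 family, had changes of opposite sign below. Each is the 130 bases before the annotated start in RefSeq, assembly GRCm38.p6, 5′ to 3′ on the strand of the gene, with motif matches in capitals.
Fos, chr12:85473760-85473889, plus strand: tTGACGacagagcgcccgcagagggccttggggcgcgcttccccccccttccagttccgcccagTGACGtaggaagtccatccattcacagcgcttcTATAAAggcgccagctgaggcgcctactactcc
Egr2, chr10:67537739-67537868, plus strand: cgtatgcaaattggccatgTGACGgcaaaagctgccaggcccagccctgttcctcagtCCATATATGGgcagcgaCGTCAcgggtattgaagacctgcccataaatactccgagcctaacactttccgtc
Jun, chr4:95052223-95052352, minus strand: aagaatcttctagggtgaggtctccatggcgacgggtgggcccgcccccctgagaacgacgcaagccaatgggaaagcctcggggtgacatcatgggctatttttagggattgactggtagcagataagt
Junb, chr8:84978749-84978878, minus strand: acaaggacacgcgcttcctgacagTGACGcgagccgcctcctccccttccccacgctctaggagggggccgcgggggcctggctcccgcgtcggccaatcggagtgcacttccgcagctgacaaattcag

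In the window of Fos, the core of the cyclic AMP response element, TGACG, began 129 and 66 bases before the start, and TATAAA 33 bases before it. In the shown window of Egr2, which has 5 annotated windows, a CArG box, the element bound by serum response factor, began 72 bases before the start. It lay between a TGACG at 111 bases and another, on the opposite strand, at 55 bases. Junb held TGACG at 106 bases before the start, and its TATAAA began at the first base after the annotated start. The Jun window held no exact match to the motifs searched. It held tgacatca, which differs by 1 base from the searched TGACGTCA, and near matches of this kind were not counted. Both strands of windows of 250 bases before to 50 after the start were searched for the AP-1 site TGACTCA, the full cyclic AMP element TGACGTCA, which contains the core searched as TGACG, the TATAAA motif, the Egr site GCGTGGGCG and the CArG box. Of the 8 members with a window, all but Egr1 and Ier2, 5 held TGACG, against 23.0% of 27025 genes with a window, 2 held TATAAA, against 15.7%, and 1 held a CArG box, against 1.81%. The AP-1 site, the full cyclic AMP element and the Egr site were found in 0 of the 8, against 5.95%, 2.03% and 0.707% of genes. Elements more than 250 bases before the start were not searched, so a missing match does not show that a gene lacks the element. These are matches of letters, and no binding was measured here.

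Of the 10 factors, 9 were above background on all 4 arrays of these resting cells, and none differed between the groups past the threshold. Several were bright. After normalization Egr1, Egr2 and Atf3 read 14.12 to 14.84, where the array medians of the genes tested were 9.35 to 9.37. Fosb, Jund and Ier2 read below those medians. Probes differ in brightness, and the cause of these levels was not tested. Before normalization the KO arrays were dimmer as a whole, with a median intensity over all probes of 122.4 and 109.0, against 167.1 and 127.6 on the WT arrays. The intensity of Egr1 was then 18422 and 14385 on the KO arrays and 39951 and 21250 on the WT arrays. Differences below are after normalization, which removes the overall difference in brightness. There, 9 of the 10 members had a lower mean in KO than in WT macrophages, and Jun had a higher one. The mean was lower for 48.2% of all genes tested. The median log2 change of the members was -0.23, against 0.01 over all genes. By limma with Benjamini-Hochberg adjustment over all genes, 0 of 10 members passed an adjusted p of 0.05 (adjusted p = 0.365 to 0.957). Of all genes, 0.0484% passed downward and 0.0484% upward. At an unadjusted limma p under 0.05, 1 of the 10 members was lower in KO, where 5.08% of all genes were. That member was Ier2, which passed the filter on dim probes only through its WT arrays, so its lower reading in KO was partly set by the filter and is no support for a difference. Of 9 macrophage markers with a probe, 7 also had a lower mean in KO, with a median log2 change of -0.40, and their part in the members' values was not tested.

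**Figure D1:**
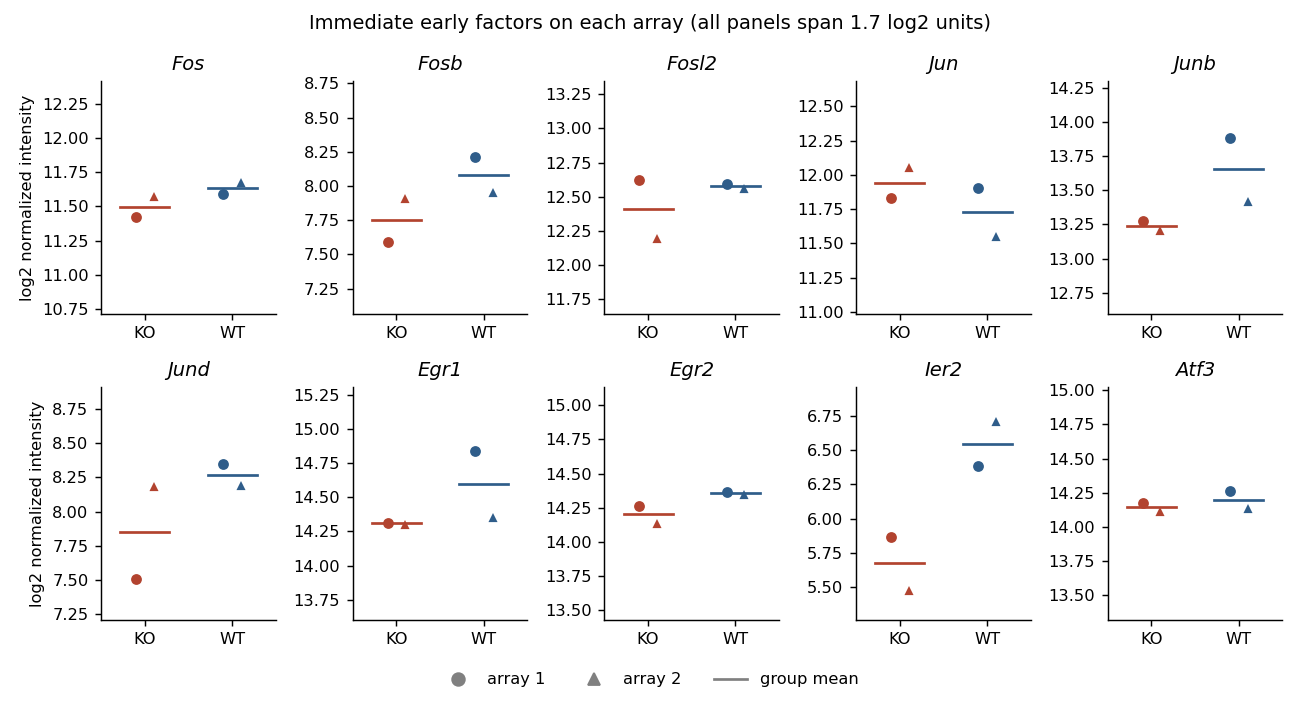
Normalized log2 intensity (vertical axis) of the measured probe of each member on the 2 KO arrays (red) and the 2 WT arrays (blue), with bars at the group means. All panels span the same range. Both KO arrays lie below both WT arrays for 7 members, where 19.1% of all genes were below and 20.8% above without overlap. Of the 7, Ier2 passed the filter on dim probes only through its WT arrays. For Jun the KO mean is the higher.

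Among the Fos family, which supplies the partner that cannot form AP-1 on its own, the groups lay close together. Fos, the founding member, had log2 intensities of 11.42 and 11.58 on the KO arrays and of 11.59 and 11.68 on the WT arrays. The groups did not overlap, but by a gap of only 0.013, and the change was -0.14 ± 0.18 (SE, 2 arrays per group; limma adjusted p = 0.866). Fosb, whose shorter splice form is the stable ΔFosB of neurons, had 7.59 and 7.91 on the KO arrays and 8.21 and 7.96 on the WT arrays. Its change was -0.33 ± 0.21 (limma adjusted p = 0.710), with a gap of 0.042 between the groups. Fosb lies on chromosome 7, which also carries Anpep. Fosl2, which encodes Fra-2, read 12.63 and 12.20 on the KO arrays and 12.60 and 12.57 on the WT arrays. KO array 1 was the highest of the 4 and KO array 2 the lowest, so the groups overlapped and the change was -0.17 ± 0.21 (limma adjusted p = 0.863).

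The Jun family, which can form AP-1 alone or with Fos proteins, held the 1 member with a higher mean in KO. Jun, its strongest activator, was 11.83 and 12.06 on the KO arrays and 11.91 and 11.55 on the WT arrays, with overlapping groups and a change of 0.21 ± 0.21 (limma adjusted p = 0.821). Junb, often a brake on Jun and itself needed for alternative activation and inflammatory genes in macrophages, was 13.27 and 13.21 on the KO arrays and 13.88 and 13.42 on the WT arrays. Both KO arrays were below both WT arrays, and the change was -0.41 ± 0.22 (limma adjusted p = 0.647). Jund, the member made most evenly in resting cells, was 7.51 and 8.19 on the KO arrays and 8.35 and 8.19 on the WT arrays. The second KO array lay 0.0066 below the second WT array, and the change was -0.42 ± 0.27 (limma adjusted p = 0.710).

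A factor common to all probes of an array cancels when probes of the same array are subtracted. Background, and normalization that depends on brightness, need not cancel, above all for dim members such as Jund and Ier2. Jun was also followed relative to the other members, a comparison chosen after the values were seen and given with no test. The log2 difference Jun minus Junb was -1.44 and -1.15 on the KO arrays and -1.98 and -1.87 on the WT arrays, 0.63 higher in KO. As a ratio of non-normalized intensities, Jun over Junb was 0.383 and 0.452 on the KO arrays and 0.260 and 0.277 on the WT arrays. These ratios compare arrays and not the abundance of the 2 transcripts, since probes differ in brightness. Jun minus Jund was 4.32 and 3.87 on the KO arrays and 3.56 and 3.36 on the WT arrays. Relative to 8 of the 9 other members, Jun was higher on both KO arrays than on both WT arrays, in normalized and non-normalized values. The exception was Fosl2. By the same criterion, in both kinds of values, 4 of the 36 pairs without Jun did not overlap. Among the 8 members that separated from Jun, Ier2 passed the filter on dim probes only through its WT arrays. The filter thus favoured its separation. Jun was picked as the member of opposite sign, which favours separation in its pairs, so these counts do not test whether Jun stands apart. Pairs of genes outside the members were not counted. The 9 pairs share the values of Jun, so they are not 9 independent observations.

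**Figure D2:**
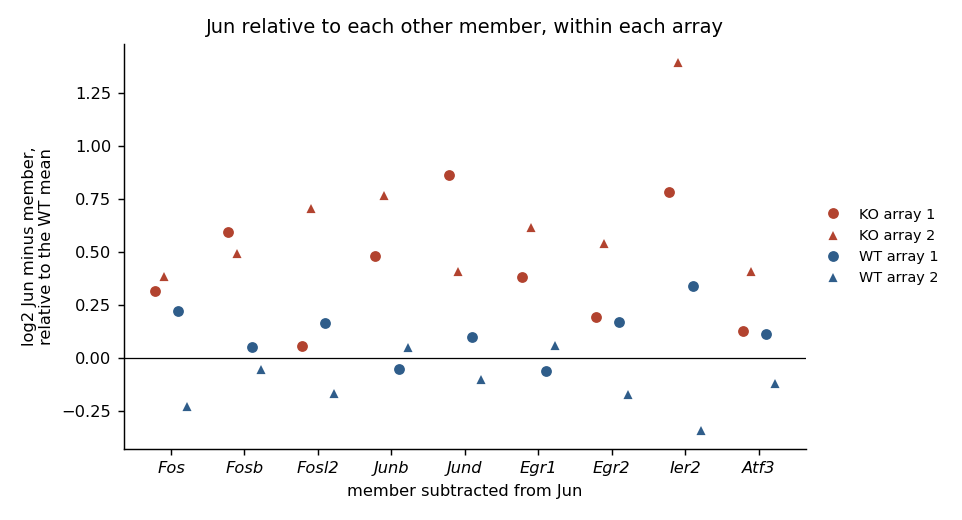
Log2 intensity of Jun minus that of each other member within the same array, relative to the mean of the 2 WT arrays (vertical axis), for KO arrays (red) and WT arrays (blue). Both KO arrays lie above both WT arrays for every member shown except Fosl2. The narrowest separations are those of Atf3 and Egr2. Ier2 passed the filter on dim probes only through its WT arrays, which favoured its separation.

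Egr1, the most widely studied factor of the Egr family and a target of the ERK pathway, had log2 intensities of 14.31 and 14.31 on the KO arrays and of 14.84 and 14.36 on the WT arrays. The first WT array stood above the other 3. The change was -0.29 ± 0.22 (limma adjusted p = 0.764). Egr2, which in macrophages is tied to alternative activation, was 14.27 and 14.14 on the KO arrays and 14.37 and 14.35 on the WT arrays, a change of -0.15 ± 0.17 (limma adjusted p = 0.843). Its groups were narrow and did not overlap, with a gap of 0.084. Atf3, a leucine zipper repressor of cytokine genes induced through Toll-like receptors, was 14.17 and 14.12 on the KO arrays and 14.26 and 14.14 on the WT arrays. These groups overlapped, and the change was -0.06 ± 0.17 (limma adjusted p = 0.957).

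Ier2, a small nuclear protein of the immediate early response, was dim. Its non-normalized intensity was 146.6 and 115.3 on the KO arrays, with detection p-values of 0.0598 and 0.139, and 242.5 and 205.2 on the WT arrays, with 0.00641 on each. It was thus not above background on either KO array, and it passed the filter only through its WT arrays. Its normalized log2 intensity was 5.86 and 5.48 on the KO arrays and 6.38 and 6.71 on the WT arrays, a fitted change of -0.88 ± 0.23 (limma adjusted p = 0.365). The fitted change depended on how background was handled, and was -0.35 without background correction, -0.39 with the authors' normalized values and -0.58 with an offset of 50. As a bound, taking for each KO array the lowest value of any detected probe, Ier2 was at least 1.03-fold lower in KO. Without Ier2, the remaining 9 members had a median log2 change of -0.17, and 8 of them had a lower mean in KO.

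**Figure D3:**
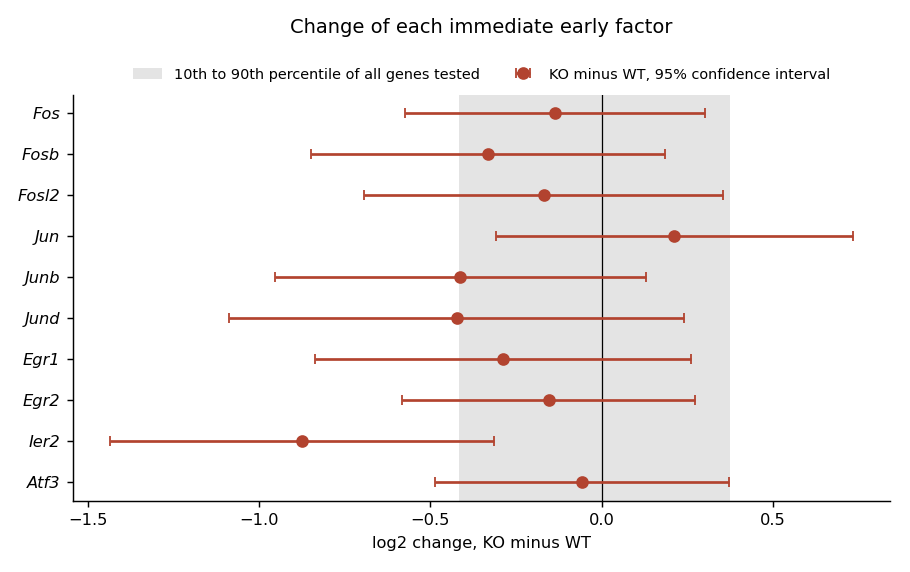
Log2 change, KO minus WT, of each member (points) with its 95% confidence interval from limma (bars), over the 10th to 90th percentile of the changes of all genes tested (grey, -0.42 to 0.38). The intervals of 9 members include 0, that of Ier2 (-1.44 to -0.31) does not, and the point of Jun alone lies to the right of 0.

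Set against the spread within groups, the changes were small. The 2 WT arrays differed by 0.016 to 0.48 log2 units over the 10 members, and the 2 KO arrays by 0.0082 to 0.68. The change between groups exceeded both of these differences for 3 members, Fosb, Egr2 and Ier2. Both KO arrays were below both WT arrays for 7 members (Fos, Fosb, Junb, Jund, Egr1, Egr2 and Ier2) and above them for 0, where 19.1% of all genes were below and 20.8% above without overlap. Leaving aside Ier2, whose direction the filter favoured, 6 of 9 members were below. The smallest two-sided p that an exact permutation test of 1 member allows here is 0.33. The count was 8 with cyclic loess (20.8% of all genes) and 5 with median scaling on detected probes (16.5% of all genes). Each 95% confidence interval was wide. That of Fos ran from -0.58 to 0.30, that of Junb from -0.95 to 0.13 and that of Atf3 from -0.49 to 0.37.

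Several of these values turned on a single array. Of the 10 members, 8 read lower on WT array 2 than on WT array 1, which had the highest median intensity before normalization. Without WT array 1, the change of Egr1 was -0.05, of Junb -0.18 and of Jun 0.39, and that of Atf3 was 0.0062, with its sign turned. Without WT array 2 they were -0.53 for Egr1, -0.64 for Junb, 0.035 for Jun and -0.12 for Atf3. Without KO array 1, Jund changed by -0.08 and Fosb by -0.17, and without KO array 2 by -0.76 and -0.49. Fosl2 turned to 0.045 without KO array 2 and was -0.38 without KO array 1. Among other ways of processing all 4 arrays, the change of Egr2 ran from -0.22 with cyclic loess to -0.10 with median scaling, and that of Atf3 from -0.13 to -0.0068. The median of the members stayed below 0 in each of these cases, between -0.32 without WT array 2 and -0.17 without WT array 1.

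**Figure D4:**
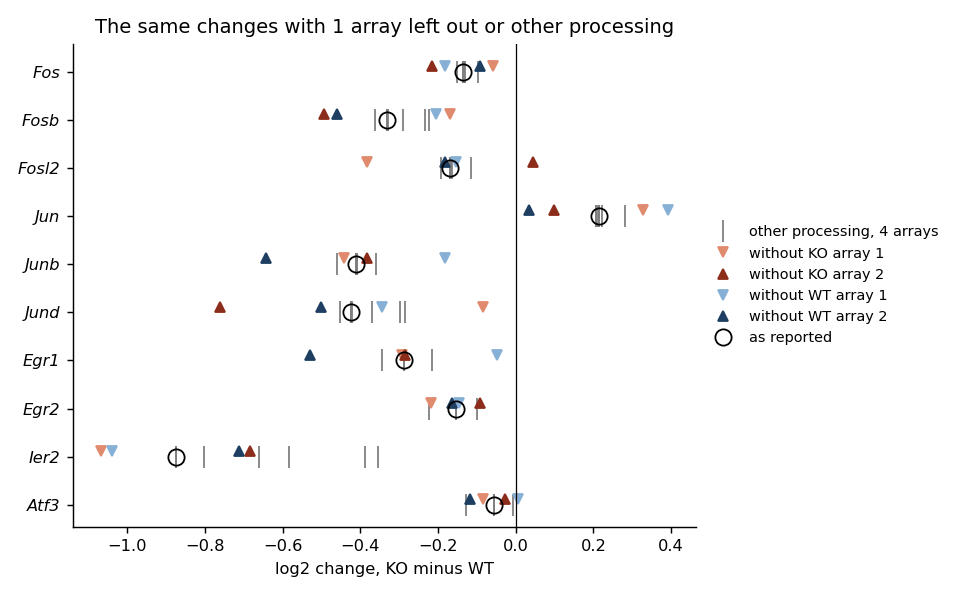
Log2 change, KO minus WT, of each member as reported (open circles), with 1 array left out (triangles) and with other processing of all 4 arrays (grey ticks). Leaving out an array moved Egr1, Jund and Jun by more than any other processing did. Ier2, Egr2 and Atf3 moved further under other processing of all 4 arrays. Fosl2 without KO array 2 and Atf3 without WT array 1 lie on the other side of 0.

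Genes that share the pathway were read from lists and passed in 0 cases in either direction. Of 29 measured immediate early genes other than the members, 22 had a lower mean in KO and 7 a higher one, with a median log2 change of -0.23. Both KO arrays were below both WT arrays for 11 of them and above for 2, where 19.1% and 20.8% of all genes were. Egr4, a further Egr factor, had the smallest p, with log2 intensities of 5.89 and 5.97 on the KO arrays and of 7.22 and 6.65 on the WT arrays. It was above background on neither KO array (limma adjusted p = 0.356). Egr4 passed the filter only through its WT arrays, so the filter favoured its lower reading in KO. The bound formed as for Ier2, from means and without an error, was 1.35-fold lower in KO. On WT array 2 its value of 6.65 lay below the lowest value of a detected probe on KO array 2, 6.66. Without Egr4, the median of the other 28 was -0.18, and 10 of them were lower without overlap. Egr3, named after its values were seen because it completes the family, had a change of -0.59 ± 0.25 (limma adjusted p = 0.557). Next by p were Socs3, an inhibitor of cytokine receptor signalling (-0.77 ± 0.23), Zfp36l1, which destabilises AU-rich messages (-0.65 ± 0.20), and Dusp2, a phosphatase of MAP kinases (-0.69 ± 0.21), with limma adjusted p of 0.411 to 0.426.

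Among 8 measured leucine zipper factors that can pair within AP-1, 5 had a higher mean and 3 a lower one in KO, with a median log2 change of 0.20. Batf2 (0.79 ± 0.22), Jdp2 (0.55 ± 0.19), a repressor that pairs with Jun, Batf3 (0.96 ± 0.45) and Atf7 (0.32 ± 0.19) were each higher on both KO arrays than on both WT arrays, with limma adjusted p of 0.391 to 0.700. These were 4 of the 8, against 20.8% of all genes, and 0 of the 8 were lower without overlap. The upstream kinases and serum response factors, which carry growth factor and stress signals to these promoters, had 10 of 15 measured genes higher in KO, with a median of 0.10. Mrtfb, a coactivator of serum response factor, had the smallest p (0.53 ± 0.17, limma adjusted p = 0.442). It was followed by Creb1 (0.43 ± 0.22), Map2k2 (0.30 ± 0.19) and Elk4 (-0.27 ± 0.18). Nab1 and Nab2, the corepressors of Egr proteins, changed by -0.23 ± 0.19 and 0.03 ± 0.18 (limma adjusted p = 0.779 and 0.977).

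Genes known as targets of AP-1 or Egr proteins showed no common direction, with 6 of 12 measured members lower and 6 higher in KO and a median log2 change of -0.01. Mmp13, a collagenase, was 12.89 and 12.35 on the KO arrays and 13.65 and 13.22 on the WT arrays, a change of -0.81 ± 0.27. Ccl2, a chemokine for monocytes, changed by -0.78 ± 0.28 and Tnf by -0.41 ± 0.17, while Hmox1, which degrades haem, had a positive value with wide error (0.94 ± 0.58). The limma adjusted p of these 4 was 0.452 to 0.707. Heat shock genes, which like the members respond to handling, had 5 of 9 measured genes with a lower mean and 4 with a higher one in KO. All 5 were lower without overlap (19.1% of all genes) and 1, Hspe1, was higher without overlap (20.8%), at 0.22 ± 0.18. Leaving aside Hspb1, whose direction the filter favoured, 4 of 8 were lower without overlap. Hspa1a (-1.22 ± 0.30, limma adjusted p = 0.365), Hspa1b (-0.60 ± 0.31) and Dnajb1 (-0.31 ± 0.17) were among the lower ones, with Hsp90aa1 (-0.15 ± 0.17) and Hspb1. Hspb1 was above background only in WT, and the bound on its mean, without an error, was 1.23-fold lower in KO. Of these, Hspe1 and Hsp90aa1 were named after their values were seen.

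**Figure D5:**
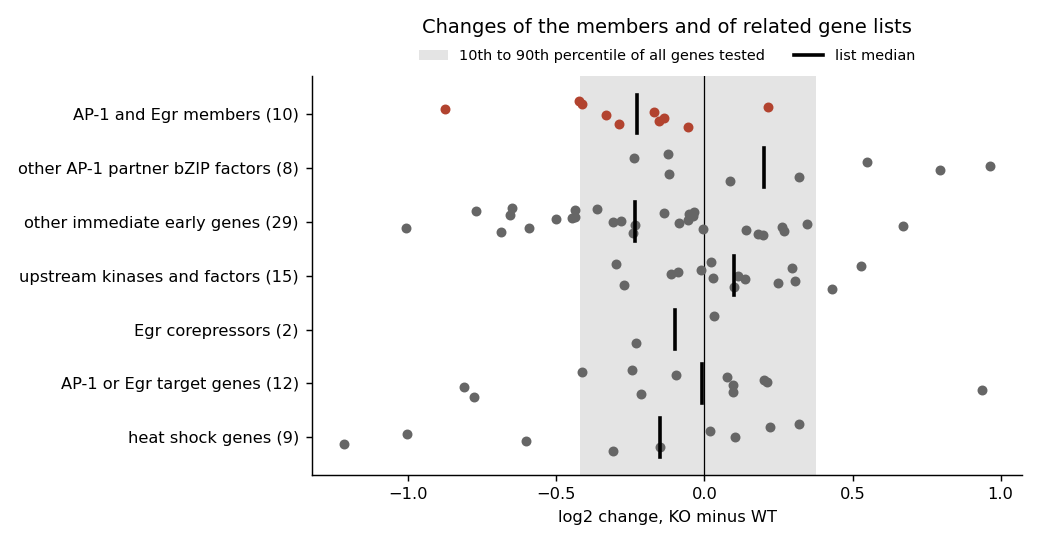
Log2 change, KO minus WT (horizontal axis), of each measured gene (points) of the members (red) and of related lists (grey), with list medians (black bars); numbers of genes are in brackets. The medians of the members and of the other immediate early genes are both -0.23, and the medians of the AP-1 partner factors (0.20) and upstream genes (0.10) lie above 0.

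The arrays read 13659 to 14823 probes above background, the lowest number on KO array 2. Between arrays, Pearson's r over the genes tested was 0.967 to 0.981, and genes are no replicates of one another. Anpep, the gene that defines the groups, was 11.12 and 11.03 on the KO arrays and 13.58 and 13.40 on the WT arrays (log2 change -2.41 ± 0.18, limma adjusted p = 0.0265). Of 9 macrophage markers with a probe, 9 were above background, among them Adgre1, Csf1r, Lyz2 and Cd14. Their summed log2 level was 16.87 and 16.78 on the KO arrays and 16.96 and 17.08 on the WT arrays, a sum carried by the brightest genes. Gene by gene, 7 of the 9 had a lower mean in KO, and 5 were lower without overlap, against 19.1% of all genes. The 2 with a higher mean, Fcgr1 (0.36 ± 0.36) and Mertk (0.27 ± 0.21), overlapped between the groups. The lowest were Timd4 (-1.29 ± 0.47), Icam2 (-0.93 ± 0.51), Adgre1 (-0.51 ± 0.20) and Gata6 (-0.51 ± 0.44), of which Icam2 and Gata6 overlapped between the groups, and 0 of the 9 passed (smallest limma adjusted p = 0.508). Other cells of the cavity were also read. Of 5 B cell markers with a probe, 4 were measured, all with a lower mean in KO. Among them, Ms4a1 was above background only in WT, so the filter favoured its lower reading in KO. The other 3 were above background in both groups. The summed log2 level of the 4 was 10.56 and 11.55 on the KO arrays and 11.80 and 12.11 on the WT arrays. Pax5 was not above background on any array. Of T and NK cell markers with a probe, 0 of 7 were measured, and likewise 0 of 4 eosinophil and 0 of 4 mesothelial markers. Of neutrophil markers with a probe 3 of 7 were measured, with summed levels of 11.35 and 11.14 on the KO arrays and of 10.02 and 11.37 on the WT arrays. Among them, Ltf was higher in KO without overlap (2.00 ± 0.45, limma adjusted p = 0.310), as were 20.8% of all genes. S100a8 (0.49 ± 0.45) and S100a9 (-0.02 ± 0.97) overlapped between the groups. Of mast cell markers 3 of 6 were measured (7.54 and 8.52 on the KO arrays, 8.31 and 8.76 on the WT arrays). Of dendritic cell markers 2 of 6 were measured (8.86 and 8.41 on the KO arrays, 8.77 and 9.63 on the WT arrays) and of fibroblast markers 1 of 4. The part of these cells in the members' values was not tested, and fewer cells of a type and less RNA per cell cannot be told apart in such samples.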

How the data were processed

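Per the file headers and the series text, the authors deposited average bead intensities, linear and without normalization between arrays, each with a detection p-value, and a table of intensities quantile normalized in GenomeStudio; background subtraction and software version are not given in the sources used here. The signals were processed here with neqc (limma 3.58.1, R 4.3.3): a normexp background correction that reads the detection p-values, an offset of 16, quantile normalization and log2. Symbols came from the platform annotation, updated by gene ID through RefSeq for GRCm38.p6 (34807 of 34885 probes with 1 symbol matched). Probes with detection p under 0.01 on at least 2 arrays were kept (14881), and the probe of highest mean log2 value stood for a gene. KO was compared with WT by lmFit and eBayes over 10335 genes and unnamed probes, with Benjamini-Hochberg adjustment. The fit was tested on simulated data.

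The members, lists and rule for named genes were chosen with earlier results of these data known. The rule took every member, Anpep, the passing genes of each list or else up to 4 of smallest unadjusted p, and the 5 genes most like the members' mean profile. Summed marker levels are log2 of summed normalized intensities. Alternatives covered background correction, scaling, the authors' values, the filter, probe choice, variance trend, replicate block and each array left out. With 2 arrays per group, their number sets the precision.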

Additional observations from a re-analysis of the deposited data

How the results depend on the processing

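Of the 10 members, 0 passed in any of the 14 other settings, and 8 kept their sign in each setting in which they were tested; Fosl2 (-0.38 to 0.045 over the arrays left out, above 0 without KO array 2) and Atf3 (-0.12 to 0.0062, above 0 without WT array 1) did not. Ier2 was not tested among probes detected on all 4 arrays. With 1 array left out, values normalized on all 4 arrays were refitted, the lone array of a group is assumed to vary like the other group, and the median of the members ran from -0.32 to -0.17. Over all genes, 5 were higher and 5 lower in KO. The number higher was 3 without a filter on dim probes and 1 for probes detected on all 4 arrays. The number lower was 10 without background correction, 8 with an offset of 50, 8 with the authors' values, 2 without a filter, 3 for probes detected on all 4 arrays, 10 with an intensity trend and 9 with every kept probe tested. With 1 array left out these counts ran from 3 to 7 and from 1 to 4. Fewer arrays or other numbers of genes tested are part of some settings; otherwise the cause was not tested. With the replicate number as a block, 6 were higher and 7 lower and the members' changes were the same. Same-numbered arrays deviated from their group means with a correlation of -0.02 across genes. With 2 arrays per group, this value cannot show whether same-numbered arrays were prepared together, and their labels share only a number.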

Other observations

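The members' mean profile, each member centred on its own mean over the arrays, was -0.15 and -0.12 on the KO arrays and 0.20 and 0.06 on the WT arrays. Among 3821 named genes that varied by at least 0.5 log2 units, 77 had a Pearson r above 0.95 with it over the 4 arrays, which is too few points to single out a gene. The 5 closest were Egr4, Rrad, a small GTPase of the RGK family, Ptprj, a receptor tyrosine phosphatase, Rab6a, a GTPase of the Golgi, and Btbd9 (r = 0.996 to 1.00). Rrad read 6.97 and 7.06 on the KO arrays and 8.37 and 7.84 on the WT arrays, a log2 change of -1.09 (limma adjusted p = 0.284). Ptprj read 6.78 and 7.01 on the KO arrays and 8.24 and 7.66 on the WT arrays, a log2 change of -1.06 (limma adjusted p = 0.345). Rab6a changed by -0.85 and Btbd9 by -0.43 (limma adjusted p = 0.401 and 0.574).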
